A study of Ovis aries with 19 samples.

Results

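Skeletal muscle of 5 female sheep given prenatal T-treatment, that is, exposed to excess testosterone before birth, was compared with muscle of 5 untreated female controls by sequencing of total RNA. The 10 muscle libraries were taken by their tissue and treatment labels from the 19 libraries of liver and muscle in the series. Genes were kept where the mean normalized read count over these 10 libraries was at least 10, which left 12966 of 28524 gene identifiers. Each library came from a different animal, identified by its sheep number, and control and treated sheep shared no number. The dose and window of the treatment, the age at sampling and the name of the muscle are not given in the sources used here.

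Skeletal muscle is built of fast and slow fibres, which differ in their myosins and in how far they rely on glycolysis or on mitochondrial oxidation. It takes up much of the glucose cleared under insulin, and FOXO factors, glucocorticoids and insulin signalling set the balance between the building and the breakdown of its proteins. Prenatally androgenised female sheep are used as a model of the polycystic ovary syndrome, in which muscle insulin resistance is common.

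The libraries matched their tissue label. ACTA1, the skeletal actin gene, had a normalized read count of 154279 to 304192 in muscle and at most 9.12 in liver, CKM, the muscle creatine kinase gene, 114660 to 244637 and at most 2.49, and MYH2, a fast myosin gene, 23437 to 125040 and at most 2.49. MYH7, the slow myosin gene, had no entry under that symbol in the normalized counts and could not be analysed here. Each muscle library held between 8455563 and 14331578 reads in genes. All 20 pairs of libraries within a group differed by more than sampling noise, their chi-square running from 19.4 to 65.3 per degree of freedom, so each counted as 1 sample. The median residual SD of a gene was 0.31 on the log2 scale. Genes with at least 1 read numbered 16586 to 17035 in control and 17180 to 18029 in treated libraries, without overlap. Reads in genes were 8455563 to 12760690 in control and 8741992 to 14331578 in treated libraries. The 50 genes with most reads held 35.7% to 38.6% of them in control and 27.9% to 36.7% in treated libraries. The part of depth and of these shares in the number of genes with a read was not tested.

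LOC114112267, an identifier in place of a symbol, was the only gene that rose past the limma threshold, a Benjamini-Hochberg adjusted p under 0.05. The identifier was not matched by symbol to the NCBI gene names used here, so its biotype is not known. With the controls given in the order of sheep 98, 131, 132, 179 and 201 and the treated animals in the order 48, 63, 185, 233 and 255, here and below, its normalized read count was 0.992, 2.16, 0, 3.48 and 0 in the controls and 66.0, 18.6, 66.9, 25.6 and 87.4 in the treated sheep. Every treated sheep stood above every control, and treated sheep 63 and 233 were the lowest of the treated group. The log2 difference was 4.56 ± 0.56 (SE), with a limma adjusted p of 0.0192. It rested on 6 reads in control and 300 in treated libraries, which after scaling is a ratio of 38.2 (exact 95% interval 17.4 to 105, counting error alone). The limma adjusted p was 0.0573 without control 201, 0.0762 without control 98, 0.0775 without treated 48 and 0.167 without treated 185, and the control mean of 1.33 was 0.789 without sheep 179. In these bulk samples fewer cells of a type and less RNA per cell cannot be told apart, which holds for every gene below.

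Of all tested genes, limma called 0.00771% higher and 0.0% lower, and edgeR called the same shares. DESeq2 called 1.24% higher and 0.702% lower, which are 161 and 91 genes. At an unadjusted p under 0.05 limma counted 7.37% of genes as higher and 7.0% as lower, and these shares serve as the background for the counts of gene groups below. Groups that did not overlap were found for 1.76% of genes with treated sheep above and 1.53% with treated sheep below. The log2 difference, always treated minus control on the log2(value + 1) scale, was above 0 for 48.4% of genes and below 0 for 51.6%. Apart from LOC114112267, no gene named below passed the limma test. Their limma adjusted p-values ran from 0.104 to 0.935, and from 0.0284 to 0.999 over the alternatives tried. A gene is therefore said to be called only where DESeq2 called it. That holds for 59 of the named genes, whose limma adjusted p-values ran from 0.104 to 0.283.

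**Figure D1:**
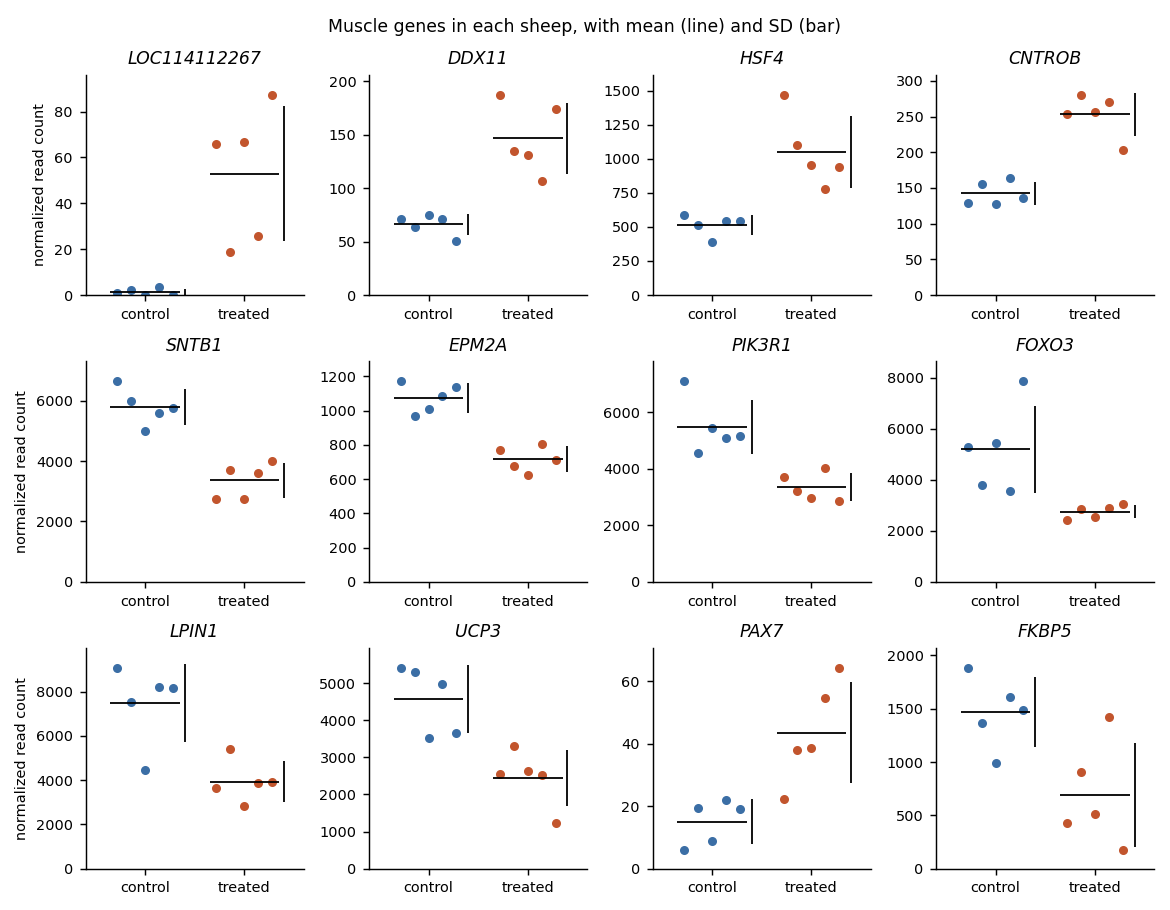
Normalized read counts (vertical axes, starting at 0) of 12 genes in the muscle of each control (blue) and treated (orange) sheep, in the order of sheep numbers used in the text, with group means as lines and SDs as bars. LOC114112267 lies between 0 and 3.48 in control and between 18.6 and 87.4 in treated sheep, and FKBP5 overlaps through treated sheep 233 at 1423.

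The genes with the smallest p-values on the higher side were named for those p-values, so the separation of their groups is a description. HSF4, a heat shock transcription factor, had 587, 511, 388, 542 and 547 in the controls and 1472, 1099, 958, 776 and 938 in the treated sheep. Treated sheep 48 was the highest and control 132 the lowest, and the groups did not overlap. DDX11, a DNA helicase of chromosome cohesion, had 71.5, 63.9, 74.8, 70.8 and 50.6 in the controls and 188, 135, 131, 106 and 174 in the treated sheep. CNTROB, a protein of centriole duplication, had 129, 156, 128, 164 and 135 in the controls and 254, 281, 257, 271 and 203 in the treated sheep. In both genes each treated sheep stood above each control. The log2 differences were 1.0 ± 0.17 (SE), 1.12 ± 0.18 (SE) and 0.82 ± 0.14 (SE), each with a limma adjusted p of 0.104 and a DESeq2 adjusted p of 1.34e-04.

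The others of this set have varied roles. EME2, a subunit of a structure-specific DNA endonuclease, had means of 207 and 388 in control and treated muscle, TUBGCP6, of the gamma-tubulin ring, 427 and 695, and NSUN6, an RNA methyltransferase, 166 and 299.5. MAN2C1, a cytosolic mannosidase, had 749 and 1188, RHBDD3, a rhomboid-like membrane protein, 123 and 217, ALS2CL, a relative of alsin, 656 and 949, EXD3, an exonuclease domain protein, 90.7 and 166, and FAM193B 368 and 618. DESeq2 called all 8 higher, and none of their ranges overlapped between the groups. The list of centrosome and cilium genes, to which CNTROB belongs, held 2 higher and 0 lower of 65 (3.08% higher, against 8.27% at the same levels). The 2 were 1 without control 98 and 4 without treated 255, and 1 was lower without control 98 or treated 233.

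On the lower side SNTB1, a syntrophin that ties signalling proteins to dystrophin, had 6636, 5979.7, 5009, 5603 and 5765 in the controls and 2744, 3695, 2743, 3605 and 4004 in the treated sheep. The lowest control, sheep 132, lay above the highest treated animal, sheep 255. EPM2A, laforin, which removes phosphate from glycogen, had 1170.1, 967, 1009, 1088 and 1137 in the controls and 770.1, 677, 622, 808 and 711 in the treated sheep, again without overlap. RPS3, a protein of the small ribosomal subunit, had 790.0, 1596, 1236, 1088 and 1299 in the controls and 804, 392, 426, 505 and 490.3 in the treated sheep. Here the groups overlapped, because control 98 and treated 48 were nearly level while the other 4 treated sheep stood below every control. The log2 differences of these 3 genes were -0.80 ± 0.14 (SE), -0.58 ± 0.11 (SE) and -1.21 ± 0.21 (SE). Ribosomal protein genes have processed copies that can share reads, and the treatment of such reads is not stated, so the value of RPS3 is uncertain.

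NAMPT, the rate-limiting enzyme of NAD salvage, had 3223 ± 652 (SD, n = 5) across the controls and 1772 ± 307 (SD, n = 5) across the treated sheep. PRPS1, which makes the ribose phosphate of nucleotides, had means of 546 and 373, NUP58, of the central nuclear pore, 283 and 177, and DDX18, a helicase of ribosome assembly, 504 and 335. FBXL17, an F-box protein that checks BTB protein pairing, had 1943 and 1263, UBXN2A, a partner of the p97 ATPase, 1312 and 922, ARHGAP10 874 and 536, CCDC6 1360.4 and 808, and MMRN1, multimerin of platelets and endothelium, 136 and 74.2. DESeq2 called each of these 9 genes lower, and their groups did not overlap. The genes of the lower side were likewise named for their p-values, so these calls and separations are a description.

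The direction of a difference varied with the level of the gene. Genes with a mean of 10 to 50 had a median log2 difference of 0.15, and 8.34% were higher against 2.13% lower at an unadjusted p under 0.05. Between 1000 and 5000 the median was -0.14 with 3.43% higher and 18.1% lower, and among the 257 genes at 5000 or more it was -0.30 with 1.17% higher and 24.9% lower. The 50 most abundant genes summed to 4882204, 4802653, 4126178, 4552351 and 4111189 normalized reads in the controls and to 2439674, 4237046, 3571201, 3957330 and 3401567 in the treated sheep. Treated sheep 48 was far below all others, and treated 63 lay within the control range. All other genes together summed to 7498167 ± 290717 (SD, n = 5) across the controls and 6913391 ± 383517 (SD, n = 5) across the treated sheep. The part of these shifts in the results for abundant gene groups was not tested, and the groups below are therefore set beside the share of all genes of the same levels that were lower or higher.

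**Figure D2:**
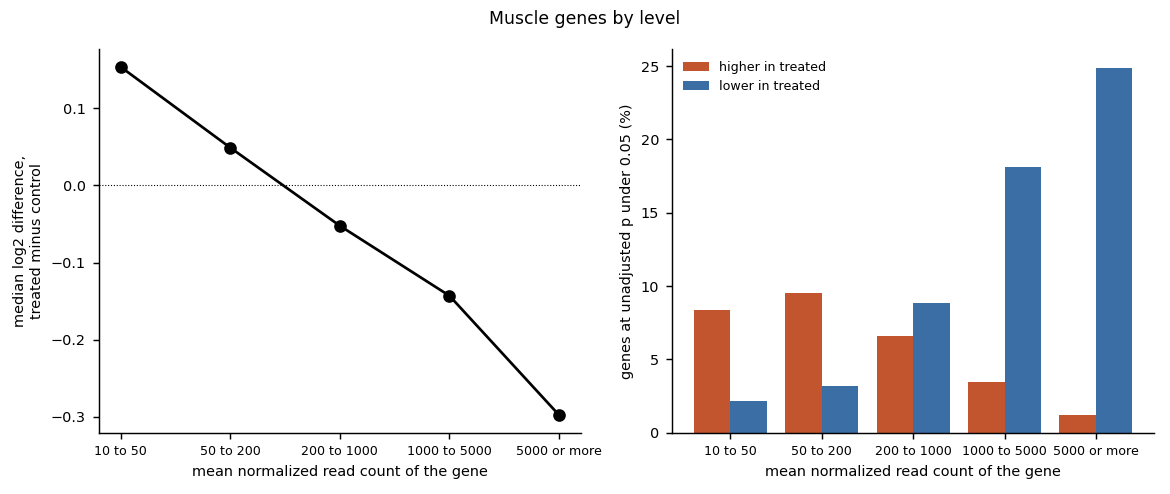
Left, the median log2 difference (treated minus control) of genes in 5 classes of mean normalized read count (horizontal axes). Right, the percentage of genes in each class that were higher (orange) or lower (blue) at an unadjusted p under 0.05. The median goes from 0.15 in the lowest class to -0.30 in the highest.

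**Figure D3:**
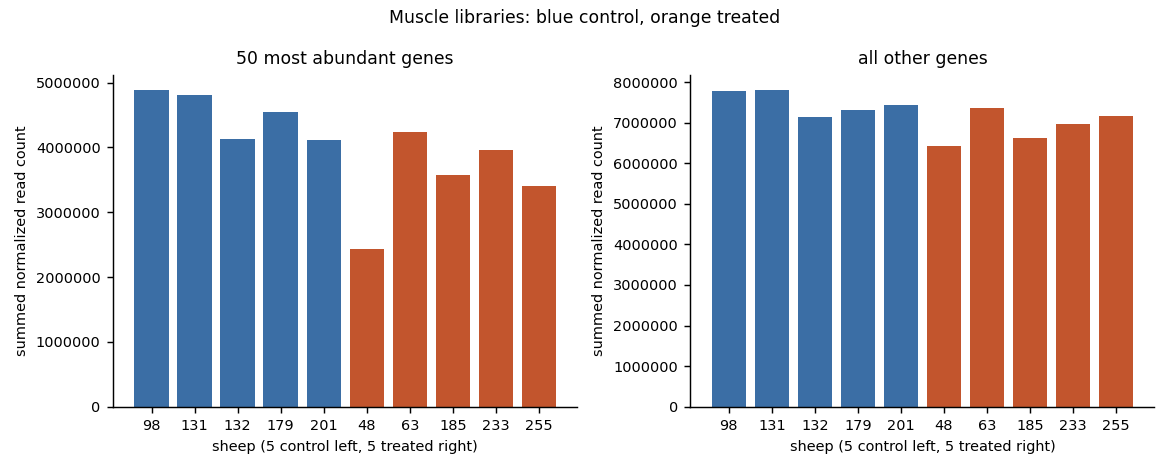
Summed normalized read counts (vertical axes, from 0) of the 50 most abundant muscle genes (left) and of all other genes (right), for each control (blue) and treated (orange) sheep. Treated sheep 48 has 2439674 in the left panel, where the controls have 4111189 to 4882204.

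The scaling of the libraries bears on these directions. The deposited values were scaled by the median of ratios, which put the median log2 difference of all genes at -0.01. Scaling by total reads, added after the data were seen, put it at 0.19. The counts at an unadjusted p under 0.05, 955 higher and 907 lower with the deposited scaling, were then 2299 and 146. Differences are given below with the deposited scaling, and a list median by total reads is to be read against the 0.19 of all genes.

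Contractile genes had mostly negative differences, with none past the limma threshold. Of 13 fast fibre genes tested, 12 were below 0, with a median of -0.47, and 3 were lower at an unadjusted p under 0.05 (23.1%, against 23.2% of all genes of the same levels). The median at the same levels was -0.27, and by total reads the list median was -0.27. The highest class of levels starts at 5000 and is open above, while the median level of this list was 77497. Members of the list are also counted in the classes, so the 2 shares are not independent. MYH1, a fast myosin heavy chain and the most abundant gene of the list, had 785343, 612656, 713416, 773751 and 666896 in the controls and 237059, 649586, 408026, 545811 and 518490.0 in the treated sheep. Treated sheep 48 was the lowest by far, treated 63 stood inside the control range, and the groups overlapped. Myosin genes are near-identical in long stretches, so reads may have been split between them. TPM1, a tropomyosin, had means of 64646 and 46343 and was called lower by DESeq2, MYBPC2, a myosin-binding protein of fast fibres, had 63728 and 42621, and ACTN3, the fast fibre actinin, 29549 and 20878. The list median was -0.27 when treated sheep 48 was left out, and the count of lower members ranged from 0 to 5 with 1 library left out: 0 without control 132 or 179, 1 without control 98, control 131, treated 48 or treated 255, and 5 without treated 233.

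Of 14 slow fibre genes tested, 7 were above 0 and 7 below, with a median of 0.01. The sign of that median depended on single sheep, from -0.16 without control 132 to 0.23 without control 131. The count of lower members was 0, where 21.8% of all genes of the same levels were lower, and it was 3 without control 132. The 1 higher member was 3 without treated 255, 2 without control 131, control 179 or treated 48 and 0 without control 98, control 132, treated 185 or treated 233. MYH7B, a slow myosin gene, had 2029 ± 739 (SD, n = 5) across the controls and 3394 ± 1359 (SD, n = 5) across the treated sheep, with overlap. The difference between the fast and the slow list was not tested. Among 35 genes of the giant sarcomere and Z-disc proteins the median was -0.30 and 6 were lower (17.1%, against 21.4% of genes of the same levels). It was -0.14 without treated sheep 48, and the count of lower members was 3 without treated 48 or treated 185. MYOM1, the M-band protein myomesin, had 34982, 34027, 22419, 24516 and 27519.7 in the controls and 9094, 21841, 17166, 18181 and 18249 in the treated sheep. Every treated sheep was below every control, and DESeq2 called it lower. TMOD1, which caps thin filaments, had 2389 and 1592 and was also called lower, while OBSL1, an obscurin-like linker, had 1225 and 1851 with overlap. RYR1, the calcium release channel, had 82699 and 55674, and CALM3, a calmodulin gene, 9029 and 6529.8. These were the only 2 of 34 calcium release and reuptake genes that were lower, and 0 were higher (5.88% lower, against 18.0% at the same levels). The 2 were 4 without control 132, treated 63 or treated 233 and 1 without control 98, 179 or 201 or treated 48 or 185.

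Genes of fuel use had mostly negative differences. Of 37 genes of glycolysis and pyruvate dehydrogenase, 31 were below 0 with a median of -0.35, and 10 were lower and 2 higher at an unadjusted p under 0.05. The 10 are 27.0% of the list, against 16.4% of all genes of the same levels, and DESeq2 called none. The median at the same levels was -0.15. By total reads the list median was -0.15, below that of all genes. PDHA1, the catalytic subunit of pyruvate dehydrogenase, had 13930.1, 14627, 7535, 9898 and 8632 in the controls and 4207, 8943, 5048, 7413 and 6423 in the treated sheep. Controls 98 and 131 were the highest, and treated 63 lay among the other 3 controls. PGK1, a glycolytic kinase, had means of 8501 and 5424, and DLD, the shared dehydrogenase subunit, 6424 and 4429. PDK3, a kinase that switches pyruvate dehydrogenase off, went the other way with 160.4 and 255. The count of 10 was 4 without control 131, 5 without control 98 or treated 48, 6 without treated 255 and 17 without treated 63, and the 2 higher were 1 without any of the libraries except control 201, treated 48 and treated 255.

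Glycogen genes numbered 28, of which 7 were lower and 1 higher (25.0% lower, against 12.9% at the same levels), with a median of -0.12 that became 0.09 by total reads. DESeq2 called 2 of them lower, EPM2A and PHKB. PHKB, a subunit of the kinase that starts glycogen breakdown, had 9991 ± 1300.1 (SD, n = 5) across the controls and 6467 ± 951 (SD, n = 5) across the treated sheep, without overlap. GYG1, glycogenin, had 3806 and 2849, and PPP1R3B, which brings phosphatase 1 to glycogen, had 158 and 281, a positive difference with overlap. The count of lower members was 3 without control 98 and 4 without treated 48 or treated 185.

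In mitochondria the differences were small and negative in most members. Of 23 citrate cycle genes 21 were below 0 with a median of -0.32, against -0.15 at the same levels. Of the 23, 3 were lower (13.0%, against 16.6% at the same levels). CS, citrate synthase, had 6076 and 4419.8, OGDH, of the oxoglutarate dehydrogenase, 6740.2 and 4813, and SUCLG2, a succinyl-CoA ligase subunit, 3786 and 2705. That count depended on single sheep: it was 16 without treated 63, 11 without control 132, 6 without control 201 and 5 without treated 233, and 1 without control 98, 131 or 179 or treated 48, 185 or 255. Of 36 complex I subunits 32 were below 0 with a median of -0.12, and the median at the same levels was also -0.12. The list median was -0.0032 without control 131 and -0.20 without treated 63. Only NDUFS1, with 5554 and 3811, was lower (2.78%, against 15.6% at the same levels). That count was 6 without treated 63, 4 without control 132, 2 without control 201 and 0 without control 98, 131 or 179 or treated 48, 185 or 255. The list median of complex I was 0.09 by total reads.

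UCP3, the mitochondrial uncoupling protein of muscle, had 5397, 5296, 3516, 4978 and 3667 in the controls and 2541, 3304, 2643, 2517 and 1245 in the treated sheep. Treated sheep 255 was the lowest, no treated sheep reached the lowest control, and DESeq2 called it lower. Of 32 genes of mitochondrial fatty acid oxidation 3 were lower and 0 higher (9.38%, against 14.8% at the same levels). Without control 132 the lower members were 7, and 2 were higher without treated 48 and 1 without control 131, control 179, treated 233 or treated 255. HADH, a dehydrogenase of that pathway, had 2607 and 1965, and CPT1B, which admits fatty acids to mitochondria, 2623 and 3604 with overlap. PDK4, the fasting-induced kinase of pyruvate dehydrogenase, had 59867, 57837, 87014, 63569 and 82126 in the controls and 12616, 82430.1, 66203, 60897 and 4922 in the treated sheep. Treated 48 and 255 were far below every other sheep, while the other 3 treated animals lay in the control range, and its SD in treated muscle was 34487 on a mean of 45414.

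Among 35 genes of fatty acid uptake, triglyceride and lipid droplets, 4 were higher and 5 lower (11.4% and 14.3%, against 6.13% and 10.4% at the same levels), with a median of 0.04. LPIN1, the phosphatase lipin that makes diacylglycerol and also acts as a coregulator, had 9053, 7524, 4478, 8225 and 8141 in the controls and 3632, 5429, 2821, 3889 and 3931 in the treated sheep. Control 132 lay below treated 63, the other controls stood above all treated sheep, and DESeq2 called it lower. AGPAT1, which makes phosphatidic acid, had 208 and 303 without overlap and was called higher by DESeq2, and DGAT1, which makes triglyceride, had 304 and 429 with overlap. The 4 higher members were 2 without control 98 or treated 48, 63 or 185, and the 5 lower ones 3 without treated 48 or treated 233.

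Among genes of protein synthesis, translation factors had mostly negative and cytosolic ribosomal proteins mostly positive differences. The medians at the same levels were -0.12 and -0.10. Of 50 translation initiation and elongation genes 45 were below 0 with a median of -0.17. Of the 50, 8 were lower and 1 higher (16.0% lower, close to the 15.1% at the same levels). By total reads the median was 0.04. EEF2K, the kinase that slows elongation, had 2929 and 1918, EIF3A, the largest initiation factor 3 subunit, 3749 and 2622, and EIF4B, a helper of the cap-binding helicase, 7806 and 5919. The count of 8 was 3 without treated 185, 4 without control 98 or treated 233, 5 without treated 48 and 14 without treated 255. Of 75 cytosolic ribosomal protein genes, 56 were above 0 with a median of 0.07, and 4 were higher and 2 lower (5.33% and 2.67%, against 4.78% and 14.3% at the same levels). The 4 became 2 without control 201 or treated 185 and 1 without control 98, and the 2 became 4 without treated 185 and 1 without control 98, control 131 or treated 233. RPL12 had 592, 772, 410.4, 786 and 319 in the controls and 746, 876, 968, 909 and 916 in the treated sheep. Treated sheep were close to each other, and controls 131 and 179 stood above the lowest of them. RPL15 had 4674 and 3719.9. Of 72 mitochondrial ribosomal genes 7 were lower and 1 higher (9.72% lower, against 8.76% at the same levels), and MRPS9, called lower by DESeq2, had 667 and 441.

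Ubiquitin ligase subunits, which mark proteins for the proteasome, leaned to the lower side. Of 68 tested, 12 were lower and 2 higher (17.6% lower, against 10.3% at the same levels), with a median of -0.13 that became 0.08 by total reads. With 1 library left out the lower members numbered 8 to 13. DESeq2 called 3 lower and 1 higher. FBXL17, above, ITCH, a HECT ligase, with 1282 and 953, and FBXL5, the iron-sensing F-box protein, with 663 and 431, were the lower ones. CUL7, a cullin scaffold, had 472 and 620.4 and was the higher one. Of 48 proteasome subunits 0 were lower and 1 was higher (13.8% and 4.98% at the same levels). The 0 became 6 without treated 255 and 1 without control 98, and the 1 became 3 without treated 255 and 2 without control 201 or treated 63.

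The FOXO and atrophy list, 23 genes of muscle wasting, had 5 lower and 0 higher members (21.7%, against 14.6% at the same levels) and a median of -0.17, which was 0.03 by total reads. FOXO3, the factor that switches on these genes, had 5304, 3816, 5435, 3555 and 7864 in the controls and 2432, 2868, 2529, 2912 and 3039.7 in the treated sheep. Treated sheep lay close together, between 2432 and 3039.7, below every control, while controls spread up to 7864 in sheep 201, and DESeq2 called it lower. FOXO1 had 1133 and 739, FOXO4 1516 and 1191 and FBXO40, a muscle ubiquitin ligase subunit that targets IRS1, 4195 and 2754, each with overlap. TRIM63, the ligase MuRF1, had 8893, 4898, 9022, 7429 and 19403 in the controls and 4635, 9041, 5938, 6511 and 5627 in the treated sheep. Control 201 stood apart from all others and the remaining controls overlapped with the treated sheep. The count of 5 was 3 without treated 48 or treated 233. In the autophagy and lysosome list 7 of 50 were lower and 1 higher (14.0%, against 11.8% at the same levels): RB1CC1, which starts autophagosomes, had 2802 and 1973 and was called lower by DESeq2, and ATG4A, a protease of that pathway, had 1299 and 1004. The 7 became 4 without control 98, treated 185 or treated 233.

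**Figure D4:**
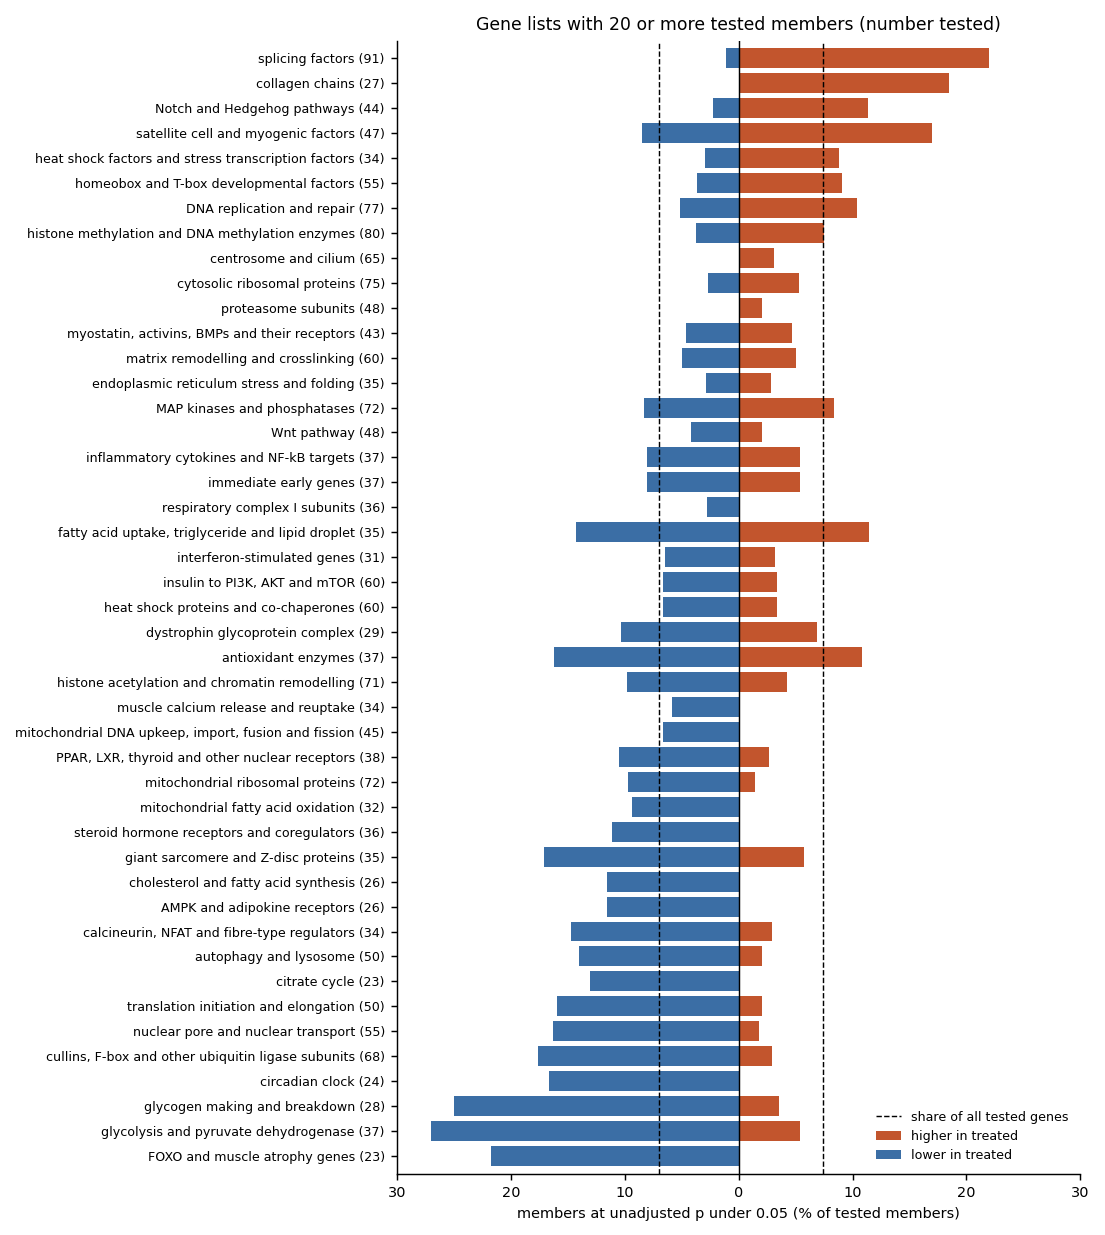
For each gene list with at least 20 tested members (number in brackets), the percentage of its members that were higher (orange, to the right) or lower (blue, to the left) in treated muscle at an unadjusted p under 0.05. Dashed lines mark the shares among all tested genes, 7.37% higher and 7.0% lower. Splicing factors have 22.0% higher and 1.10% lower, and the glycolysis list has 27.0% lower. The shares of all genes of the same levels, not drawn, are 5.39% and 12.6% for splicing factors and 16.4% lower for the glycolysis list.

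Splicing factors, the proteins that cut introns from new transcripts, had the largest share of higher members among the lists with at least 20 tested genes. Of 91 tested, 20 were higher and 1 lower, which is 22.0% higher against 5.39% of all genes of the same levels, and 1.10% lower against 12.6%. The median was 0.09, and 59 were above 0. Without any 1 library between 14 and 21 members were higher and between 0 and 3 lower. SNRNP70, the U1 small nuclear ribonucleoprotein, had 819, 786, 704, 871 and 796 in the controls and 1245, 1222, 1372, 929 and 1011 in the treated sheep. All treated sheep were above all controls, with 233 the nearest to them. PRPF40B, a partner of U1, had 445 and 632, RBM25, which also binds U1, 1042 and 1399, and LUC7L3, of the same family as a yeast U1 protein, 1546 and 2182. DESeq2 called these 4 higher, and CLK1 and CLK4 as well, which lie outside the rule for names and were chosen after their values were seen. CLK1, a kinase of SR splicing proteins, had 1576, 2031, 1515, 2147 and 2336 in the controls and 4151, 3040.5, 2218, 4239.6 and 2257 in the treated sheep, and CLK4, a related kinase, 1087 and 1591. Treated 48 and 233 were the highest for CLK1, and treated 185 and 255 lay within the control range.

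Nuclear pore and transport genes, which carry RNA and proteins through the nuclear envelope, leaned the other way. Of 55 tested, 9 were lower and 1 higher (16.4% lower, against 10.4% at the same levels), with a median of -0.14 that was 0.07 by total reads, and the count was 15 without treated 255. Among 77 genes of DNA replication and repair 8 were higher and 4 lower (10.4% and 5.19%, against 7.82% and 6.06% at the same levels), and DESeq2 called 2 higher, DDX11 and FANCG, a protein of DNA crosslink repair, with 437 and 652. The 8 were 5 without treated 48, and the 4 were 2 without treated 48 and 7 without treated 63.

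At the neuromuscular junction, the contact of nerve and fibre, 4 of 17 genes were higher and 1 lower (23.5% higher, against 7.26% at the same levels), with a median of 0.25. CHRND, the delta subunit of the acetylcholine receptor, had 61.5, 52.0, 27.5, 94.0 and 144 in the controls and 169, 125, 108, 137 and 248 in the treated sheep. Control 201 lay above treated 63, 185 and 233. CHRNB1, the beta subunit, had 636 and 869, CHRNE, the adult epsilon subunit, 294 and 512, and RAPSN, rapsyn, which clusters the receptors, 497 and 631, of which only the last did not overlap between the groups. DESeq2 called none of the 17. In the dystrophin complex DMD, dystrophin, had 2980.0 ± 263 (SD, n = 5) across the controls and 2188 ± 375 (SD, n = 5) across the treated sheep, without overlap, and of 29 members 3 were lower and 2 higher (10.3% and 6.90%, against 12.7% and 5.28% at the same levels), SNTB1 among the lower. Those 3 were 5 without control 201, treated 233 or treated 255 and 6 without treated 63. The 2 higher were 4 without control 131 or treated 255 and 1 without control 98, control 132 or treated 48, 63 or 233.

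Satellite cells are the stem cells of muscle, and PAX7 is the factor that marks them. PAX7 had 5.95, 19.5, 8.80, 22.1 and 19.1 in the controls and 22.3, 38.0, 38.5, 54.5 and 64.1 in the treated sheep. Treated 48 was level with the highest control, 179, to within 1 normalized read, and the other 4 treated sheep stood above. MYF5, an early myogenic factor, had 9.92, 22.7, 6.60, 13.9 and 24.6 in the controls and 23.3, 30.8, 50.2, 32.4 and 27.2 in the treated sheep, with an overlap of control 201 with treated 48. The log2 differences were 1.53 ± 0.39 (SE) and 1.12 ± 0.36 (SE). CDH15, a cadherin of these cells, had 179.8 and 253, and SIX5, a homeodomain factor, 16.8 and 36.1. DESeq2 called PAX7, CDH15 and SIX5 higher and none of the list lower. MYOD1, a factor of commitment to muscle, had 97.3, 135, 78.1, 81.3 and 36.9 in the controls and 142, 98.7, 122, 109 and 318 in the treated sheep, where treated 255 stood apart, MYOG, myogenin, 113 and 158, and ITGA7, the laminin receptor of fibres, 949 and 1512. Of 47 genes of the list 8 were higher and 4 lower (17.0% higher, against 6.48% at the same levels). With 1 library left out 7 to 10 were higher, and the 4 lower became 1 without control 98 and 2 without treated 48 or treated 185.

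Collagen chains had positive differences in 22 of 27 genes, with a median of 0.25, and 5 were higher and 0 lower (18.5% higher, against 7.28% at the same levels). COL7A1, of anchoring fibrils, had 14.5 and 28.7, and COL18A1, of basement membranes, 91.2 and 163. DESeq2 called none. In the mean score of the list treated 185 and 233 stood at 0.59 and 0.93 above the control mean, and the other 3 treated sheep between -0.10 and 0.13. The median was 0.06 without treated 233, 0.16 without treated 185 and 0.12 without control 201, and the count of 5 was 3 without control 98 or control 132 and 2 without treated 185. The fibroblast markers had scores of 0.29 in treated 185 and 0.98 in treated 233, against -0.56 to -0.10 in the other treated sheep. COL1A1 and COL3A1, themselves collagen chain genes, are among these markers, so the 2 scores are not independent. The part of fibroblasts in the collagen values was not tested.

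**Figure D5:**
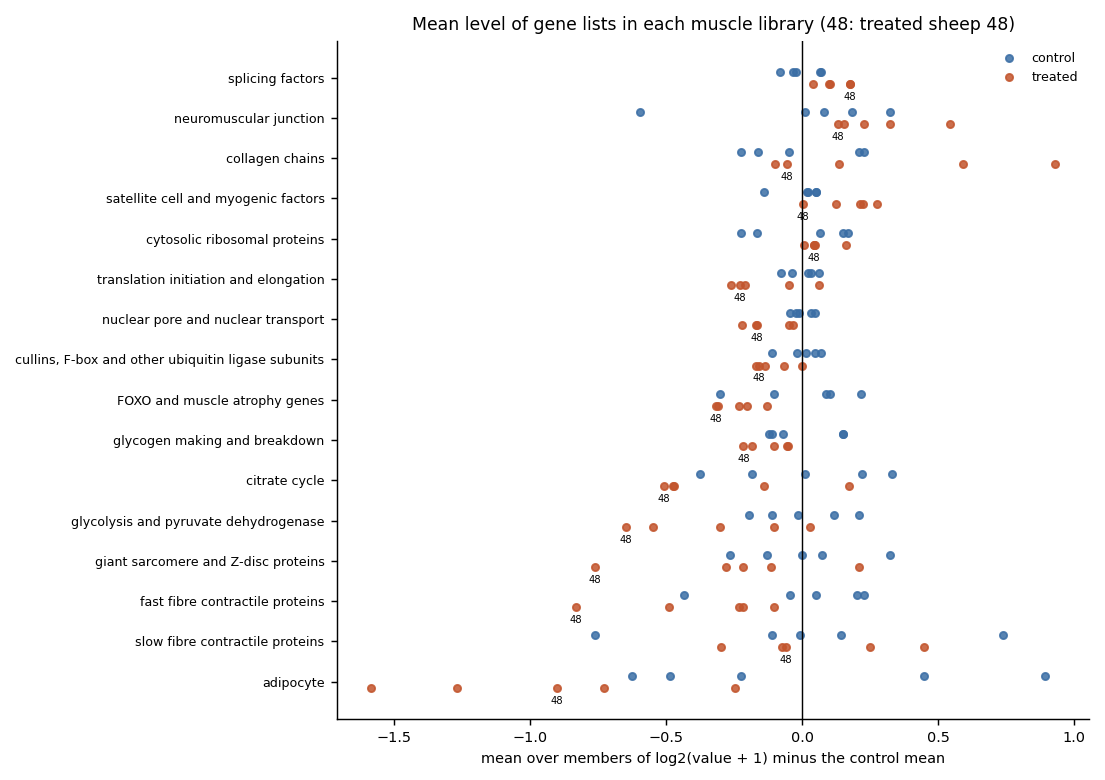
The mean over the tested members of 16 gene lists of log2(value + 1) minus the control mean (horizontal axis), in each control (blue) and treated (orange) sheep; treated sheep 48 is marked. Sheep 48 is the lowest in the fast fibre and giant sarcomere lists, at -0.83 and -0.76.

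The lists of regulators, 773 genes together, held 47 higher (6.08%) and 54 lower members (6.99%), shares close to those of all genes. The single regulators below were named by the rule, mostly for their small p-values, so their differences are a description. In insulin signalling PIK3R1, the regulatory subunit of PI3-kinase, had 7079, 4556, 5451, 5084 and 5136 in the controls and 3715, 3219, 2975, 4017 and 2869 in the treated sheep. No treated sheep reached the lowest control, 131, and DESeq2 called it lower, with a log2 difference of -0.70 ± 0.15 (SE). INSR, the insulin receptor, had 1239.6, 1008, 1106, 1233 and 1753 in the controls and 1001, 1573, 996, 1437 and 1530.1 in the treated sheep, with full overlap. IRS1, its substrate, had 753 and 869, and SLC2A4, the insulin-dependent glucose transporter, 1090.0 ± 465 (SD, n = 5) across the controls and 911 ± 521 (SD, n = 5) across the treated sheep, both with overlap. Of the 60 genes from insulin to mTOR, 4 were lower and 2 higher (6.67% and 3.33%, against 9.39% and 6.50% at the same levels). The 4 were 2 without control 98 or treated 48 or 185 and 7 without treated 255, and the 2 were 0 without treated 255 and 1 without control 98, control 131 or treated 48, 63 or 185. PRKAB2, a regulatory subunit of AMP kinase, had 5168 and 3555, PRKAA2, its catalytic subunit in muscle, 181 and 136, and STRADB, a partner of the kinase LKB1 above it, 2717 and 1973, the last called lower by DESeq2.

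ESR1, the estrogen receptor, had means of 623 and 481 in control and treated muscle, with overlap and no call. FKBP5, a chaperone partner that glucocorticoids and androgens induce, had 1878, 1366, 993, 1609 and 1487 in the controls and 427, 909, 515, 1423 and 177 in the treated sheep. The 4 treated sheep other than 233 were below every control, 255 lowest, while treated 233 lay among the controls, and none of limma, edgeR and DESeq2 called it. NCOA4, a coactivator that also delivers ferritin to lysosomes, had 4017 and 2888 and was called lower by DESeq2. Of 36 steroid receptors and coregulators, 4 were lower and 0 higher (11.1%, against 9.68% at the same levels). HSD17B1, which activates estrogen, had 13.9 and 25.1 without overlap, the only one of 15 steroid converting enzymes at an unadjusted p under 0.05 (6.67% higher, against 8.22% at the same levels), and 2 were higher without control 98 or treated 63.

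THRB, a thyroid hormone receptor, had 368, 245, 149.6, 194 and 227 in the controls and 101, 149.7, 97.4, 130.3 and 120.4 in the treated sheep. Control 132 and treated 63 were level, control 98 was the highest, and DESeq2 called it lower. Of the KLF family KLF12, a repressor, had 207, 276, 229.9, 288 and 294 in the controls and 352, 353, 461, 416 and 366 in the treated sheep, called higher by DESeq2 without overlap, whereas KLF11 had 2777 and 1958 and KLF9, a target of glucocorticoid and thyroid hormone, 3451 and 2358. Of 24 clock genes 4 were lower and 0 higher (16.7%, against 10.5% at the same levels), among them CIART, a clock repressor, with 58.8 and 33.6 and CRY1 with 664 and 464, and the 4 were 2 without control 98 or treated 48, 185 or 233. The 0 higher were 2 without treated 233 and 1 without control 132 or treated 255. The time of sampling was not given in the sources used here.

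Calcineurin and the growth factor pathways had members on both sides. PPP3CB, a catalytic subunit of calcineurin, which favours slow fibre genes, had 4762 ± 401 (SD, n = 5) across the controls and 3514 ± 339 (SD, n = 5) across the treated sheep, without overlap and called lower by DESeq2. TBX15, a factor of glycolytic fibres, had 3859 and 2308 with overlap. DUSP3, a phosphatase of MAP kinases, had 5075 and 3137, called lower. In the myostatin and activin list 2 were higher and 2 lower of 43 (4.65% each, against 7.87% and 5.64% at the same levels), and the 2 lower were 5 without treated 255, 4 without control 131 and 1 without treated 48. SMAD3, which carries the signal, had 377 and 556, and WFIKKN2, which binds myostatin, 204 and 129. IGFBP5, the main IGF-binding protein of muscle, had 7605, 13403, 4126, 6247 and 3067 in the controls and 2509, 4398, 3804, 3345 and 4054 in the treated sheep, where control 131 was far above the others and the groups overlapped. STAT3 had 1156 and 813 and IL6R, the receptor through which interleukin-6 reaches it, 1372 and 948. HSBP1, which binds heat shock factors, had 1351 and 1060.5, against the higher values of HSF4 above.

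Chromatin genes had members on both sides, with 3 higher and 7 lower of 71 acetylation and remodelling genes (4.23% and 9.86%, against 6.59% and 9.35% at the same levels) and 6 higher and 3 lower of 80 methylation genes (7.5% and 3.75%, against 7.01% and 8.03%). The 7 were 4 without control 98 or treated 185 and 3 without treated 48, and the 3 were 1 without control 201 or treated 48 or 233 and 7 without treated 255. KAT2B, a histone acetyltransferase, had 4989, 4871, 4202, 4594 and 4916 in the controls and 2915, 3247, 3114, 2963 and 3869.8 in the treated sheep. Every treated sheep was below every control, and DESeq2 called it lower. MBD2, which reads methylated DNA, had 719.7 and 532, called lower by DESeq2, KMT5C, a histone H4 methyltransferase, 33.6 and 52.8, and TET2, which oxidises methylcytosine, 438 and 614. Of the imprinted genes NNAT, neuronatin, had 259 and 389.8 without overlap and PEG3 218 and 299.6.

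Markers of other cells were measured beside these groups. The summed level of 9 adipocyte markers was 2161 to 3549 in control and 1171 to 2067 in treated muscle, without overlap. In the mean score of the 6 tested members, where each counts equally, the groups did overlap. That score ran from -0.63 to 0.89 in the controls and from -1.58 to -0.25 in the treated sheep. Only 1 of the 6 had a mean of 1000 or more. All 6 that were tested were below 0, with a median of -1.04, against 0.02 at the same levels. Of the 6, 3 were lower and 0 higher at an unadjusted p under 0.05 (50% lower, against 7.20% at the same levels). With 1 library left out 2 to 4 were lower, and none was called by limma or DESeq2. The list median was -0.67 without control 201. FABP4, the fatty acid binding protein of fat cells, had 456, 264, 889, 448 and 1230.5 in the controls and 295, 144, 317, 109 and 454 in the treated sheep, and ADIPOQ, adiponectin, 66.5, 248, 322, 83.6 and 357 in the controls and 58.9, 31.6, 156, 34.9 and 72.8 in the treated sheep. Controls 132 and 201 were the highest for both genes. For FABP4 controls 131 and 179, and for ADIPOQ controls 98 and 179, lay within the treated range. PLIN1, the lipid droplet coat of fat cells, had 62.8 and 25.4. No adipocyte marker was at 0, and the part of fat cells in the lipid gene results was not tested.

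T and NK cell markers had positive differences in 9 of 10 genes, with a median of 0.39, against 0.14 at the same levels. Of the 10, 1 was higher and 0 lower (10.0% higher, against 8.45% at the same levels). With 1 library left out 1 to 3 were higher. LCK, which starts T-cell receptor signalling, had 12.9, 17.3, 19.8, 18.6 and 20.5 in the controls and 37.5, 31.6, 24.7, 42.6 and 24.3 in the treated sheep, with no overlap. CXCL9, a chemokine that draws T cells, had 29.8, 40.1, 23.1, 16.3 and 10.9 in the controls and 73.1, 80.1, 20.4, 182 and 86.4 in the treated sheep, called higher by DESeq2, with treated 233 the highest and treated 185 among the controls. Of 37 inflammatory cytokines and NF-kB targets 2 were higher and 3 lower (5.41% and 8.11%, against 7.90% and 5.73% at the same levels), with a median of -0.02. Among 31 interferon-stimulated genes 1 was higher and 2 lower (3.23% and 6.45%, against 8.38% and 4.16%). With 1 library left out, 1 to 3 of the first list and 1 to 4 of the second were higher. The summed level of the 12 T and NK markers with a value was 199.6 to 289 in control and 230.4 to 397 in treated muscle. Fibroblast, endothelial, pericyte and macrophage markers overlapped between the groups in their sums. All 7 tested skeletal muscle markers, MYH1 of the fast fibre list among them, were below 0. Their median was -0.47, against -0.30 at the same levels, and 0 were lower at an unadjusted p under 0.05. Their mean score was -1.03 in treated 48, -0.69 in treated 255 and -0.17 to 0.0021 in the other treated sheep, against -0.25 to 0.15 in the controls. Red cell markers summed to 1.10 to 6.84 in control and 2.91 to 8.12 in treated muscle, with SLC4A1 at 0. Of the hepatocyte markers ALB was at most 16.2.

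One gene differed between the tissues in its response. TMEM82, a transmembrane protein without a settled role, had 36.7, 34.6, 31.9, 31.3 and 30.1 in the controls and 87.3, 55.8, 75.6, 75.8 and 55.3 in the treated sheep in muscle. Muscle groups did not overlap. In the livers of the same animals, with 4 controls, its mean was 521 in control and 303 in treated sheep. The difference of the muscle and the liver effect was 1.87 ± 0.30 (SE) on the log2 scale with a limma adjusted p of 0.0497, and TMEM82 was 1 of 11697 genes tested that way (0.00855%). It was lost with a pseudocount of 4 and without any 1 sheep other than 63. LOC114112267 had means of 0.440 and 56.4 in liver, a difference between the tissues of -0.70 ± 0.74 (SE).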

How the data were processed

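RNA of 10 muscle libraries was analysed. Per the labels' protocols, total RNA was extracted with Trizol, treated with DNase and made into TruSeq libraries, and the submitters' processing notes name Trimmomatic, STAR and featureCounts 1.6.1. Build, annotation and strand setting are not given in the sources used here. Normalized read counts (signal) per gene had been deposited by the authors: 100% of the values were whole multiples of 1 read within 0.01 read, scaled within muscle by the median of ratios. Genes were tested on log2(value + 1) with limma 3.58.1 (R 4.3.3), two-sided, with trend = TRUE and p-values adjusted by Benjamini-Hochberg at 0.05. The log2(value + 1) scale understates the change of low genes. As alternatives, edgeR 4.0.16 and DESeq2 1.42.0 were run on the reads recovered from these values. Intervals on reads cover counting error only. Biotypes and names came from an NCBI table of assembly ARS-UI_Ramb_v3.0, which matched 11926 of the 12966 tested genes by symbol and 213 by number. The procedure was tested on simulated data.

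The members, the gene lists and the rule for names were chosen with earlier results of these data known. Names cover genes past the threshold, the 12 of smallest p with a symbol in each direction, up to 4 members per list at an unadjusted p under 0.05 (otherwise the 1 of smallest p), the 8 regulators of smallest p in each direction, and fixed insulin, hormone and marker genes; of 289 such genes 130 are named. A list's share at the same levels is the mean, over its members, of the share among all genes in the same of 5 classes of mean count. The members of the list stay in these classes, and the highest class, from 5000, has no upper limit. Its median at the same levels is the mean, over its members, of the median log2 difference of that class. Muscle was compared with liver in a fit of all 19 libraries. The sheep number pairs the tissues, 9 animals having given both: between the muscle and the liver library of a sheep the correlation of deviations was 0.103 to 0.349. Other settings were TMM, array weights, a minimum mean of 50 or none, a pseudocount of 0.25 or 4, 1 fit of all 19 libraries and each library left out.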

Additional observations from a re-analysis of the deposited data

Results flagged for a closer look

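In groups of 5, a sheep stood apart from the others of its group, by more than 0.71 of the range, in 14 of 274 gene groups tested, about the 1 in 20 that chance gives. Among the treated sheep these were ALS2CL at 823 in sheep 233, RPS3 at 804 in 48, ITCH at 1111 in 63, FBXO40 at 4496 in 233, MYOD1 at 318 in 255, MBD2 at 651 in 255, KMT5C at 62.5 in 185 and HSD17B1 at 37.8 in 185. Among the controls they were CALM3 at 7343 in sheep 201, FOXO4 at 1609.8 in 98, TRIM63 at 19403 in 201, HMOX1 at 1396 in 131, MBD2 at 609.8 in 201 and PRKAA2 at 269 in 98. MBD2 had such a sheep in both groups.

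TMEM82 differed between the tissues in its response to the treatment, with a muscle effect that exceeded the liver effect by 1.87 on the log2 scale in a test of the difference itself (limma adjusted p = 0.0497).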

How the results depend on the processing

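The single gene called higher by limma became 0 with a pseudocount of 0.25 or a mean of at least 50, 161 by DESeq2 and 79 with scaling by total reads, a setting added after seeing the data; without 1 library it was 0 to 4 (0 without control 98 or 201 or treated 48 or 185, 4 without treated 255). The 0 called lower became 91 by DESeq2, 1 with scaling by total reads and 0 to 1 without 1 library (1 without control 132). At an unadjusted p under 0.05 the counts were 479 higher and 386 lower with all 19 libraries in 1 fit, 2299 and 146 with scaling by total reads, and 786 to 1067 and 650 to 1170 without 1 library. The cause of these changes was not tested.

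Of the named genes, INSR changed sign, from -0.034 (without control 131) to 0.17 with 1 library left out. LOC114112267 kept its direction in each setting that tested it, all but the mean of at least 50, and its limma adjusted p was 0.102 with a pseudocount of 0.25. Of the list counts, 597 of the values under another setting moved by over 1.5 times or from 0, and 1843 did not.

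For the difference between muscle and liver, 1 gene was called higher with the sheep number as a replicate block, as without it (correlation within a sheep 0.12), so the block changed no call. It was 0 with a pseudocount of 4 and 0 to 1 without 1 sheep (1 only without 63). No paired analysis was possible within muscle because control and treated sheep share no number. Depth limits genes near a mean of 10, where 1 read is a large share of the value.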

Other observations

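Antioxidant enzymes held members on both sides, with 4 of 37 higher and 6 lower at an unadjusted p under 0.05 (10.8% and 16.2%, against 5.79% and 11.4% of genes at the same levels). PRDX3, the mitochondrial peroxiredoxin, had means of 3639 in control and 2337 in treated muscle, and HMOX1, heme oxygenase, 3103 and 1476, both called lower by DESeq2 and with overlap between the groups. PRDX6, a cytosolic peroxiredoxin, had 3780.2 and 2700.5, without overlap. The 4 higher members became 2 without control 98, control 179, treated 185 or treated 255 and 1 without control 201 or treated 48.

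Long non-coding RNAs leaned to the higher side. Of 274 tested, 40 were higher and 3 lower, 14.6% and 1.09%, with a median log2 difference of 0.21. Genes with a LOC identifier in place of a symbol, 1575 in all, had 11.2% higher and 4.06% lower. A mean of 10 to 50 was found in 66.1% of the first class and 55.2% of the second, and at that level all genes tested had 8.34% higher and 2.13% lower, and the part of level in these shares was not tested.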
